A study of Mus musculus with 21 samples.

Results

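D5-LSKCD201- cells, the CD201-negative cells of a gate for blood stem and progenitor cells, sorted on day 5 of a coculture of embryonic stem cell derivatives, were compared gene by gene with FL-LSKCD201+ cells from mouse fetal liver. The comparison takes the 3 D5-LSKCD201- and 3 FL-LSKCD201+ libraries of the RNA-seq table of sorted cells, which is 6 of 21 libraries in the series and 6 of 15 in that table. LSK stands for lineage-negative, Sca-1-positive, c-Kit-positive, the gate that holds mouse hematopoietic stem and progenitor cells, and CD201 is the endothelial protein C receptor, encoded by Procr. LSK is used here as the name of the gate: blood cell markers were low in the D5-LSKCD201- libraries and pluripotency and epithelial genes high, as given below. The study used a 3D self-assembling peptide to induce blood formation from embryonic stem cells and asked how near the resulting cells came to natural ones.

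The labels give the D5-LSKCD201- cells the 129/ola strain background. The study's methods name embryonic stem cells of both 129/ola and C57BL/6 mice, and the strain of each library is taken here from its label. They were derived from mouse embryonic stem cells (mESC) by embryoid bodies induced in the 3D peptide, and the resulting colonies were moved onto OP9 cells, a bone marrow stromal line treated with mitomycin, with SCF, IL-3 and Flt3 ligand. The sort on day 5 of that coculture used antibodies to lineage markers, c-Kit and CD201 as the methods list them, so the Sca-1 part of the gate rests on the group's name. The FL-LSKCD201+ cells came from livers of C57BL/6 embryos at E12.5 and were not cultured. Values of mESC and D5-LSKCD201+ (both 129/ola) and of bone marrow BM-LSKCD201+ cells (young adult C57BL/6 mice) are given beside those of the comparison where they help to place a gene. The CD201 gate, strain, culture, and in vitro or in vivo origin changed together between both groups and cannot be told apart. The study calls the 3 libraries of each group biological replicates, and for the FPKM of the day 5 cells it speaks of independent experiments. The labels do not tie a library to a culture, litter or sort, so the p-values measure the spread between these libraries, part of which may be technical.

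Fetal liver is the main site of blood formation in the mid-gestation mouse embryo, where stem cells expand beside erythroid and myeloid progenitors and hepatoblasts. Stem cell identity there is held by transcription factors such as Runx1, Gata2, Hoxa9, Hlf and Mecom, and cells committed to blood carry CD45, the product of Ptprc. Embryonic stem cells leave the naive state through a primed, epiblast-like state and a primitive streak state before mesoderm and hemogenic endothelium form, and each of these states has its own marker genes.

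Levels are FPKM, fragments per kilobase of transcript scaled to the size of the library, which corrects for transcript length. Differences are log2 fold changes on the log2(FPKM + 1) scale, D5-LSKCD201- minus FL-LSKCD201+, with their standard error (SE). This scale understates the change of genes with low levels. A gene was called higher or lower (it rose or fell) at a limma adjusted p (Benjamini-Hochberg) under 0.05 with a log2 fold change of at least 1 in size. The test took in 14336 of the 27968 genes of the table, those whose 6 libraries averaged 0.5 FPKM or more.

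The libraries of each group were not evenly alike. On the log2 scale over all tested genes the Euclidean distance was 19.2 between D5-LSKCD201- replicates 1 and 3, and 50 and 51.4 from these to replicate 2. Among FL-LSKCD201+ it was 17.2 between replicates 2 and 3, and 54.9 and 52.4 from these to replicate 1. Distances between the groups, 181 to 185, were larger than any within a group. Whether the close pair of each group were separate samples was not tested. If they were not, n would be 2 a group and the SEs and p-values too small. D5-LSKCD201- replicate 2 stood lower at GC-rich and long transcripts: its median difference from replicates 1 and 3 was -0.19 in the GC-richest quartile of genes and -0.23 in the quartile of longest transcripts. FL-LSKCD201+ replicate 1 was lower at short transcripts (median -0.21 in the shortest quartile), and it stood out in the granzyme gene Gzma (8.50 FPKM, listed at 0 in replicates 2 and 3), the mast cell protease gene Cma1 (6.69 against 0.226 and 0.117) and Tpsb2 (5.05, listed at 0 in the others). These genes were chosen after their values were seen. Summed FPKM ran from 512278 to 620332 per library and 11745 to 12340 genes reached 1 FPKM. The number of reads behind the values is unknown, so no counting error can be given.

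D5-LSKCD201- and FL-LSKCD201+ cells differed over much of the transcriptome. Of the 14336 tested genes 2665 rose (18.6%) and 2686 fell (18.7%) in D5-LSKCD201- cells by the adjusted p of limma, and the median log2 fold change was -0.02. The adjusted p alone passed for 9680 genes (67.5%). For 205 of the genes called higher all FL-LSKCD201+ libraries were listed at 0, and for 53 of those called lower all D5-LSKCD201- libraries were. In 5138 genes (35.8%) every D5-LSKCD201- library lay above every FL-LSKCD201+ library, and in 5368 (37.4%) every one lay below. The percentages of genes called higher and lower are the background for the counts of gene lists that follow. Of the genes called higher, 1399 (52.5%) also had all 9 libraries of 129/ola groups above all 6 libraries of C57BL/6 groups, and of those called lower 1990 (74.1%) had all 9 below. The share over all tested genes was not computed, so these percentages have no background. All 129/ola groups were embryonic stem cells or derived from them, and both C57BL/6 groups came from mice. Strain and origin thus move together for every gene.

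**Figure D1:**
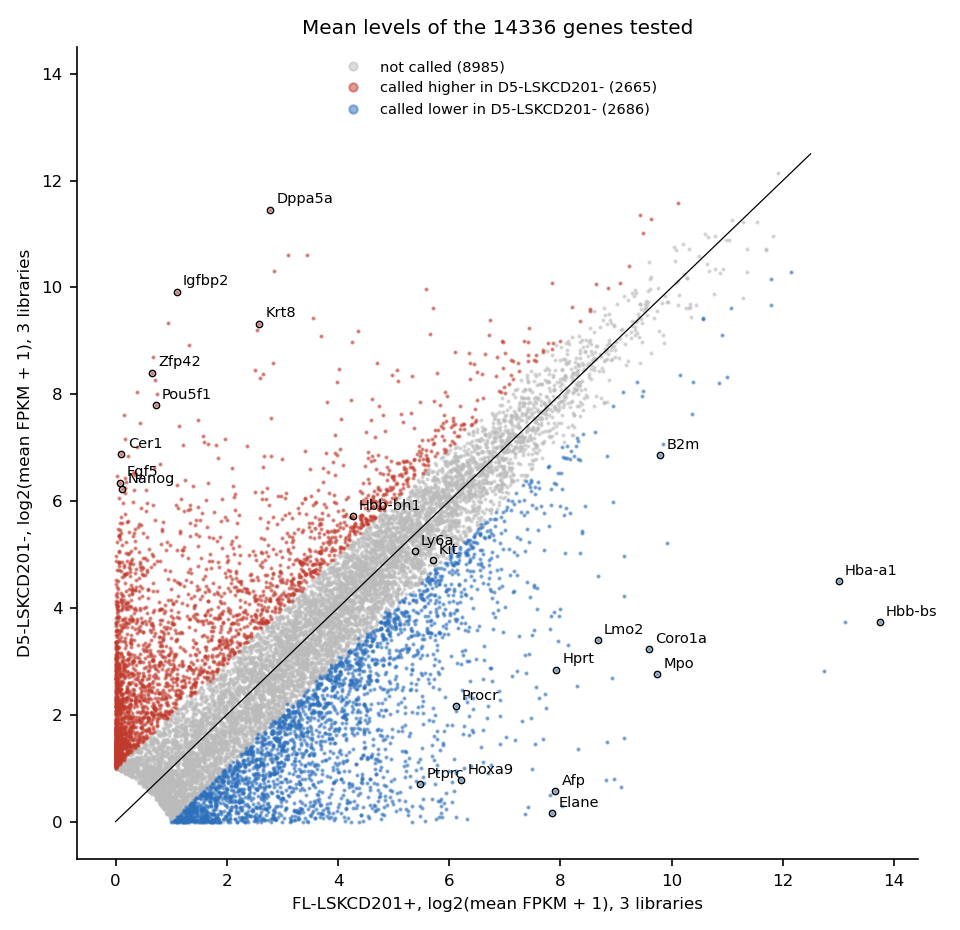
Each point is 1 of 14336 tested genes. The x axis is log2(mean FPKM + 1) in the 3 FL-LSKCD201+ libraries, the y axis the same in the 3 D5-LSKCD201- libraries, the line marks equal levels, and colours mark the 2665 genes called higher, the 2686 called lower and, in grey, those not called. Pluripotency and epithelial genes such as Dppa5a and Krt8 lie far above the line, and globin, myeloid and liver genes such as Hbb-bs, Mpo and Afp far below it.

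The genes of the sorting markers came first. Procr (chr2:155751116-155755471, GRCm38), which encodes CD201, was at 3.59, 3.02 and 3.82 FPKM in D5-LSKCD201- cells and at 66.6, 69.3 and 69.4 FPKM in FL-LSKCD201+ cells. The groups were far apart, and Procr fell with a log2 fold change of -3.96 ± 0.11 (SE; limma adjusted p = 2.42e-07). Against D5-LSKCD201+ cells of the same strain and coculture, at a mean of 59.7 FPKM, the log2 fold change was -3.76 ± 0.09 (adjusted p = 1.17e-07). Both comparisons set cells sorted as CD201-negative against cells sorted as CD201-positive. The direction of the Procr difference was thus largely set by the sort, and its p-values are no separate evidence. Kit, the receptor of stem cell factor, was at 31.0, 23.8 and 31.5 FPKM against 68.1, 40.0 and 45.5, and Ly6a, which encodes Sca-1, at 32.1, 31.7 and 33.8 against 45.8, 36.8 and 39.1. Both were lower in every D5-LSKCD201- library, with log2 fold changes of -0.79 ± 0.21 and -0.30 ± 0.11, under the fold threshold (adjusted p = 0.0131 and 0.0420). Mean levels in mESC were 6.78 FPKM for Kit and 1.6 FPKM for Ly6a, so the 2 positive gate markers were present in D5-LSKCD201- cells above the mESC level (log2 fold changes against mESC 1.93 ± 0.13 and 3.70 ± 0.10, adjusted p = 2.51e-05 and 5.65e-07).

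Pluripotency genes formed the group with the highest median change. Of 28 core and naive pluripotency genes, all tested, 27 rose, none fell, and every D5-LSKCD201- library lay above every FL-LSKCD201+ library in all 28. Their median log2 fold change was 4.84, against -0.02 over all tested genes. Summed over the list, the level was 4909, 4370 and 5120 FPKM in D5-LSKCD201- replicates 1 to 3 and 38.2, 31.4 and 35.0 FPKM in FL-LSKCD201+ replicates 1 to 3. Only Klf4, a factor that many somatic cells also use, did not reach the fold threshold (0.88 ± 0.23, adjusted p = 0.0119). Bulk libraries give a mean over the sorted cells, so that fewer cells of a type and less RNA per cell cannot be told apart, here and for every list below.

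Pou5f1, which encodes the core pluripotency factor OCT4, was at 249, 155 and 258 FPKM in D5-LSKCD201- cells and at 0.766, 0.570 and 0.619 FPKM in FL-LSKCD201+ cells. Its log2 fold change was 7.03 ± 0.20 (adjusted p = 2.86e-07). Nanog, its homeodomain partner, was at 72.7, 78.0 and 71.6 FPKM against 0.121, 0.0439 and 0.0766 (6.12 ± 0.10, adjusted p = 9.74e-08). Neither gene had overlapping groups, and the same held for Sox2, the third core factor, at 20.4, 8.74 and 19.9 FPKM against 0.0898, 0 and 0.144 (3.92 ± 0.30). Replicate 2 was the lowest D5-LSKCD201- library for Pou5f1 and Sox2 but not for Nanog. Among naive markers, Dppa5a had the highest level, with 2843, 2579 and 2991 FPKM against 7.39, 3.82 and 6.42 (8.71 ± 0.21). Zfp42, which encodes REX1, was at 325, 374 and 316 FPKM against 0.813, 0.449 and 0.479 (7.75 ± 0.13). Utf1, a chromatin protein of undifferentiated cells, was at 315, 269 and 338 FPKM and rose by 7.57 ± 0.17. The ratio of group means was 339 for Pou5f1, 921 for Nanog, 209 for Sox2, 477 for Dppa5a and 583 for Zfp42.

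To place these levels, the same libraries were set against mESC, a comparison that shares the D5-LSKCD201- libraries with the main one. Over all genes, 1476 of 13596 tested were higher in D5-LSKCD201- cells than in mESC (10.9%) and 473 lower (3.48%). The count of lower genes was 723 after quantile normalization and 790 with a pseudocount of 0.1. Of the 28 pluripotency genes 2 were higher and 10 lower than in mESC, with a median log2 fold change of -0.84. Nanog was at a mean of 73.9 ± 2.51 FPKM (SD, n = 3) in mESC and 74.1 ± 3.41 FPKM in D5-LSKCD201- cells (log2 fold change 0.00 ± 0.06, adjusted p = 0.973). Sox2 was lower than in mESC (67.8 ± 11.4 FPKM there, -2.06 ± 0.30, adjusted p = 0.00101), as was Esrrb, an orphan nuclear receptor of the naive state (-1.01 ± 0.24, adjusted p = 0.00891). Pou5f1, with a mean of 426 FPKM in mESC, was at -0.98 ± 0.18, just under the fold threshold. Dppa3, a maternal factor also used in primordial germ cells, went the other way, from a mean of 7.29 FPKM in mESC to 69.8 FPKM in D5-LSKCD201- cells (3.10 ± 0.09). In D5-LSKCD201+ cells, 26 of the 28 genes were lower than in D5-LSKCD201- cells, where 1904 of 13691 tested genes were higher over the whole transcriptome (13.9%) and 1475 lower (10.8%).

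Promoter sequence is shown for Nanog and Zfp42 because both hold the letters TTTGCAT, part of the octamer sequence bound by OCT4. The windows are from RefSeq on GRCm38.p6, 5′ to 3′ on the gene's strand, with the letters TTTGCAT in capitals. For Nanog the 120 bases before the start are given (chr6:122707369-122707488, plus strand), and for Zfp42 the first 120 of the 250 bases before it (chr8:43307140-43307259, minus strand). Both genes were picked for display after their values were seen.
Nanog: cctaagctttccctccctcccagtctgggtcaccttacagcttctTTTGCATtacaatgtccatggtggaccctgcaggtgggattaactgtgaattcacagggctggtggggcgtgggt
Zfp42: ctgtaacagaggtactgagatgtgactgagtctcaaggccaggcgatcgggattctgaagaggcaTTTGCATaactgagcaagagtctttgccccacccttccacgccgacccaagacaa
Searched on both strands in the 250 bases before the start, TTTGCAT was in 3 of 18 pluripotency genes with a promoter in the table (16.7%) and in 1257 of 27025 genes overall (4.65%). A match is a description of letters only.

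**Figure D2:**
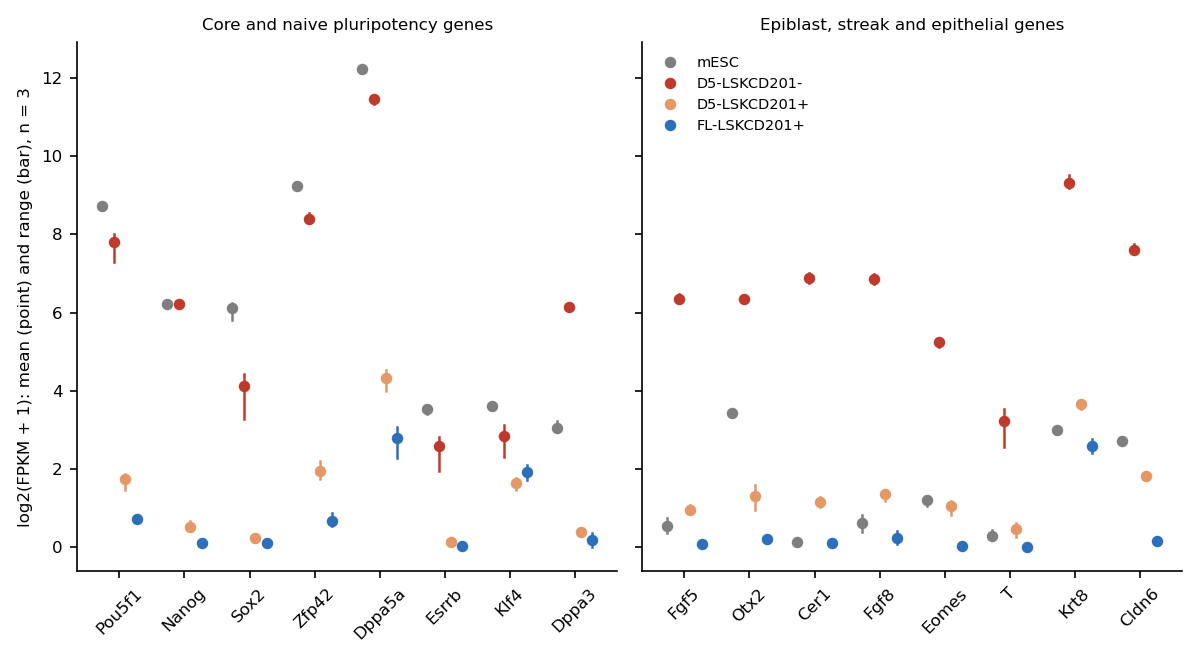
Levels as log2(FPKM + 1), mean (point) and range (bar) of 3 libraries per group, for 8 pluripotency genes (left) and 8 epiblast, streak and epithelial genes (right). In D5-LSKCD201- cells the left genes are near or under the mESC level except Dppa3, the right genes are above all other groups, and FL-LSKCD201+ cells are near 0 in most.

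Genes of the primed epiblast and of the primitive streak were high as well. Of 28 listed genes 25 could be tested. Of these 22 rose, none fell, and the median log2 fold change was 3.54. The remaining 3 were too low in both groups (Cdx2, Cdx4 and Zic2, each at most 1.13 FPKM in any of the 6 libraries). Fgf5, the growth factor that marks primed epiblast, was at 77.2, 87.6 and 76.6 FPKM in D5-LSKCD201- cells and 0.0972, 0.0386 and 0.0333 FPKM in FL-LSKCD201+ cells (6.27 ± 0.11, adjusted p = 9.74e-08). Otx2, a homeobox factor of the same state, rose by 6.16 ± 0.11. Cer1, a secreted antagonist of Nodal, BMP and Wnt signals made in anterior endoderm, was at 108, 129 and 115 FPKM against 0.0645, 0.0611 and 0.105 (6.77 ± 0.11). All D5-LSKCD201- libraries were thus close to each other and far from fetal liver cells for these 3 genes.

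Of the streak genes, Fgf8 was at 109, 106 and 126 FPKM (6.62 ± 0.13), and Eomes, a T-box factor of mesoderm and definitive endoderm, at 38.7, 33.7 and 37.6 FPKM (5.21 ± 0.11). T, which encodes Brachyury, was at 10.6, 4.93 and 9.77 FPKM and was listed at 0 in every FL-LSKCD201+ library. Mixl1 had a log2 fold change of 4.78 ± 0.15. The streak and endoderm markers were above the mESC level too: 17 of 25 tested genes of this list were higher than in mESC and 3 lower, with a median of 2.51. Fgf5 (mean 0.457 FPKM in mESC), Cer1 (0.0970) and T (0.220) differed from mESC by 5.81 ± 0.12, 6.75 ± 0.09 and 2.89 ± 0.25. Nodal, the signal that maintains epiblast, was high in both (mean 38.0 FPKM in D5-LSKCD201- and 29.3 in mESC, 0.36 ± 0.06). Against D5-LSKCD201+ cells, all 24 tested genes of the list were higher in D5-LSKCD201- cells (median 3.38).

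Epithelial genes moved with them. Of 24 adhesion and keratin genes 21 rose and 1 fell (median 2.55). Krt8, a keratin of simple epithelia, was at 584, 734 and 599 FPKM against 4.30, 5.74 and 4.97 (6.74 ± 0.14, adjusted p = 1.18e-07), and its mean in mESC was 6.95 FPKM. Cldn6, a tight junction claudin of early embryonic epithelium, was at 179, 214 and 187 FPKM against 0.0711, 0.0698 and 0.181 (7.45 ± 0.11). Cdh1, which encodes E-cadherin, was at 84.0, 47.7 and 85.9 FPKM against 0.218, 0.676 and 0.492 (5.62 ± 0.25), with a mean of 58.0 FPKM in mESC. Krt8 and Cldn6 were thus above mESC (6.32 ± 0.10 and 4.88 ± 0.09), while Cdh1 did not pass the test against mESC (0.27 ± 0.21, adjusted p = 0.312). The exception was Ocln, the tight junction protein occludin, with 3.07, 2.78 and 2.40 FPKM against 8.05, 8.13 and 8.06 (-1.28, adjusted p = 5.68e-05).

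Germline genes gave a similar count, 16 higher and 1 lower of 17 tested (median 3.24). Tfap2c, a factor of primordial germ cell specification, was at 27.6, 22.7 and 23.9 FPKM against 0.152, 0 and 0.0444 (4.59 ± 0.13). Dazl, an RNA-binding protein of germ cells, was at 6.65, 6.75 and 5.84 FPKM (2.75 ± 0.11). The gene that fell was Ddx4, the germ cell helicase VASA, which was read in FL-LSKCD201+ cells at 22.9, 22.4 and 23.9 FPKM against 4.96, 5.88 and 4.95 (-1.95 ± 0.11).

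The endoderm list split. Of 18 tested primitive and visceral endoderm genes 12 rose and 5 fell (median 2.0). Transcription factors were on the high side: Gata4, an endoderm GATA factor, at 41.5, 15.2 and 41.2 FPKM against 0.0452, 0.0189 and 0.0654 (4.88 ± 0.36), and Sox17, an endoderm and early endothelial SOX factor, at 89.8, 105 and 101 against 5.67, 5.46 and 4.82 (3.98 ± 0.11). Foxa2, a forkhead factor of endoderm and node, was at 20.6, 14.4 and 18.7 FPKM (3.99 ± 0.15). Sox17 and Gata4 did not separate D5-LSKCD201- from D5-LSKCD201+ cells by the fold threshold (-0.30 ± 0.08 and -0.25 ± 0.36), whereas Foxa2 did (3.50 ± 0.14). The 5 genes that fell, Afp, Trf, Apoa1, Ttr and Rbp4, encode secreted carrier proteins that fetal hepatocytes also make, and they are described with the liver genes.

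Extracellular matrix and stromal genes were mostly higher in D5-LSKCD201- cells. Of 27 tested, 23 rose and 2 fell (median 2.0), and the list summed to 750, 770 and 751 FPKM against 36.5, 38.9 and 40.4. Acta2, smooth muscle actin, was at 122, 185 and 121 FPKM against 0.165, 0.0589 and 0.155 (6.97 ± 0.18). Sparc, a matrix glycoprotein, was at 334, 329 and 334 against 3.67, 5.99 and 6.30 (5.75 ± 0.18). Col1a1, type I collagen, was at 24.9, 8.02 and 25.7 FPKM against 0.0520, 0.876 and 0.563 (3.66 ± 0.44), with replicate 2 low. Periostin (Postn) fell, with 1.77, 1.67 and 1.81 FPKM against 11, 10 and 10.4 (-2.06 ± 0.11). OP9 is a stromal line on which the colonies grew, and the sort took lineage-negative, c-Kit-positive cells. The part of OP9 in these values was not tested. Of the 27 genes of the list tested against mESC, 22 were higher in D5-LSKCD201- cells. Against D5-LSKCD201+ cells from the same coculture, 3 of 28 tested genes were higher and 8 lower (median -0.40).

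Among all genes, the 10 with the largest increase were Igfbp2, Dppa5a, Trh, Cyp26a1, Zfp42, Car4, Hspb1, Utf1, Ftl2-ps and Cldn6. Igfbp2 (chr1:72824502-72852474), an IGF-binding protein, was at 892, 1052 and 959 FPKM against 1.47, 0.50 and 1.45 (8.86 ± 0.20, adjusted p = 1.57e-07). Trh, the thyrotropin-releasing hormone precursor, was at 663, 565 and 695 against 1.62, 0.543 and 0.583 (8.43 ± 0.22). Cyp26a1 (chr19:37697807-37701528), the enzyme that degrades retinoic acid, was at 392, 476 and 380 against 0.679, 0.562 and 0.557 (8.02 ± 0.12). These 3 genes differed in how mESC compared: the mESC means were 267 FPKM for Igfbp2, 278 FPKM for Trh and 0.762 FPKM for Cyp26a1. Hspb1, a small heat shock protein, was at 460, 465 and 520 FPKM (7.61 ± 0.12) and at a mean of 594 FPKM in mESC. Ftl2-ps, a ferritin light chain pseudogene, was at 1403, 1616 and 1671 FPKM against 5.96, 7.34 and 9.47 (7.53 ± 0.16). Rps3a2, a copy of a ribosomal protein gene chosen after its values were seen, was at 555, 641 and 578 against 3.02, 5.81 and 5.68 (6.70 ± 0.21). Both were high in the mESC, D5-LSKCD201- and D5-LSKCD201+ groups of 129/ola and low in BM-LSKCD201+ cells (13 and 6.14 FPKM). Reads of such copies can be shared with their parent genes, so their levels are uncertain.

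On the other side stood the hematopoietic program. Of 39 tested transcription factors of hematopoietic stem cells 36 fell and none rose, all 39 had every D5-LSKCD201- library below every FL-LSKCD201+ library, and the median log2 fold change was -3.19. The list summed to 171, 130 and 173 FPKM in D5-LSKCD201- cells and to 2220, 2104 and 2114 FPKM in FL-LSKCD201+ cells. Fosb and Zfp521 were among the 3 not called (-0.67 and -0.55), and Zbtb16 was too low to test.

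Hoxa9, a homeobox factor of definitive stem cells, was at 0.677, 0.911 and 0.535 FPKM against 60.2, 80.4 and 78.9 (-5.43 ± 0.15, adjusted p = 2.79e-07). Lmo2, a bridging protein of the stem cell factor complex, was at 10.3, 8.16 and 10.3 FPKM against 425, 398 and 397 (-5.27 ± 0.11). Spi1, which encodes PU.1, was at 5.39, 6.13 and 6.18 FPKM against 163, 169 and 166 (-4.60 ± 0.09). These levels left no overlap between the groups, with fetal liver means 103, 42.4 and 28.2 times the D5-LSKCD201- means. Myb, needed for definitive but not primitive blood, was at 2.99, 3.22 and 3.73 FPKM against 96.1, 77.8 and 80.0 (-4.31 ± 0.13). Hlf and Mecom, a pair of factors tied to self-renewal, fell by 4.29 ± 0.17 and 3.41 ± 0.17 on the log2 scale. Gata2 was at 3.55, 1.96 and 4.13 FPKM against 75.0, 65.2 and 65.8 (-4.08 ± 0.21).

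Runx1, the factor required for the endothelial-to-hematopoietic transition, kept a measurable level: 6.06, 4.37 and 5.74 FPKM in D5-LSKCD201- cells against 40.6, 41.6 and 44.4 FPKM (-2.77 ± 0.13, adjusted p = 2.05e-06). It was above the means of mESC (0.355 FPKM, 2.23 ± 0.13) and of D5-LSKCD201+ cells (1.80 FPKM, 1.19 ± 0.15). Of the 31 factors testable against mESC 16 were higher in D5-LSKCD201- cells and none was lower (median 1.01). Fli1 (2.06 ± 0.13), Hhex (1.84 ± 0.07), Spi1 (1.81 ± 0.10) and Lmo2 (1.70 ± 0.12) were among them, and Myb (0.17 ± 0.11) was not. Against D5-LSKCD201+ cells 3 were higher and 14 lower of 36. Mecom, at a mean of 22.8 FPKM there, and Erg, at 13.4 FPKM, had log2 fold changes of -2.81 ± 0.17 and -3.13 ± 0.11.

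Leukocyte genes shared by most blood cells were lower almost throughout: 39 of 40 fell, none rose, and the median was -3.80. Ptprc, which encodes CD45, was at 0.419, 0.935 and 0.545 FPKM in D5-LSKCD201- cells and at 52.1, 38.4 and 39.9 in FL-LSKCD201+ cells (-4.77 ± 0.17, adjusted p = 6.45e-07). Coro1a, an actin regulator of leukocytes, was at 8.46, 9.17 and 7.60 FPKM against 845, 727 and 742 (-6.36 ± 0.11), and at 8.41 FPKM in mESC. Vav1, an exchange factor for Rac, was at 1.38, 1.34 and 1.34 against 67.9, 41.8 and 43.2 (-4.43 ± 0.19). CD45 message was thus near 0 in D5-LSKCD201- cells, and in D5-LSKCD201+ cells it was at a mean of 0.409 FPKM.

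Surface receptors followed with exceptions. Of 31 tested cytokine receptors and stem cell surface genes 22 fell and 3 rose (median -2.59). Cd34 was at 18, 23.7 and 17.3 FPKM against 220, 178 and 176 (-3.22 ± 0.15). Flt3, the receptor of a ligand added to the coculture, was at 0.289, 0.166 and 0.582 FPKM against 49.8, 50.7 and 52.3 (-5.28 ± 0.14). The SLAM gene Cd48 (-5.73 ± 0.13) and Cd27 (-5.69 ± 0.14) had the lowest log2 fold changes of the list. The 3 genes that rose were Cd9, a tetraspanin (2.10 ± 0.14), Ackr3, a scavenging chemokine receptor (2.80 ± 0.10), and Il6st, the shared gp130 chain (1.38). Itga2b, which encodes CD41, an early marker of emerging blood cells, was at 3.51, 3.92 and 3.92 FPKM against 8.30, 8.74 and 8.45. Its log2 fold change was -0.99 ± 0.11, short of the fold threshold, and -1.15 with a pseudocount of 0.1, which calls it. Without 1 of D5-LSKCD201- replicates 2 or 3 or of FL-LSKCD201+ replicate 1 it was -1.01, also called. Cd34 (2.82 ± 0.14) and Itga2b (1.58 ± 0.12) were both above mESC.

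**Figure D3:**
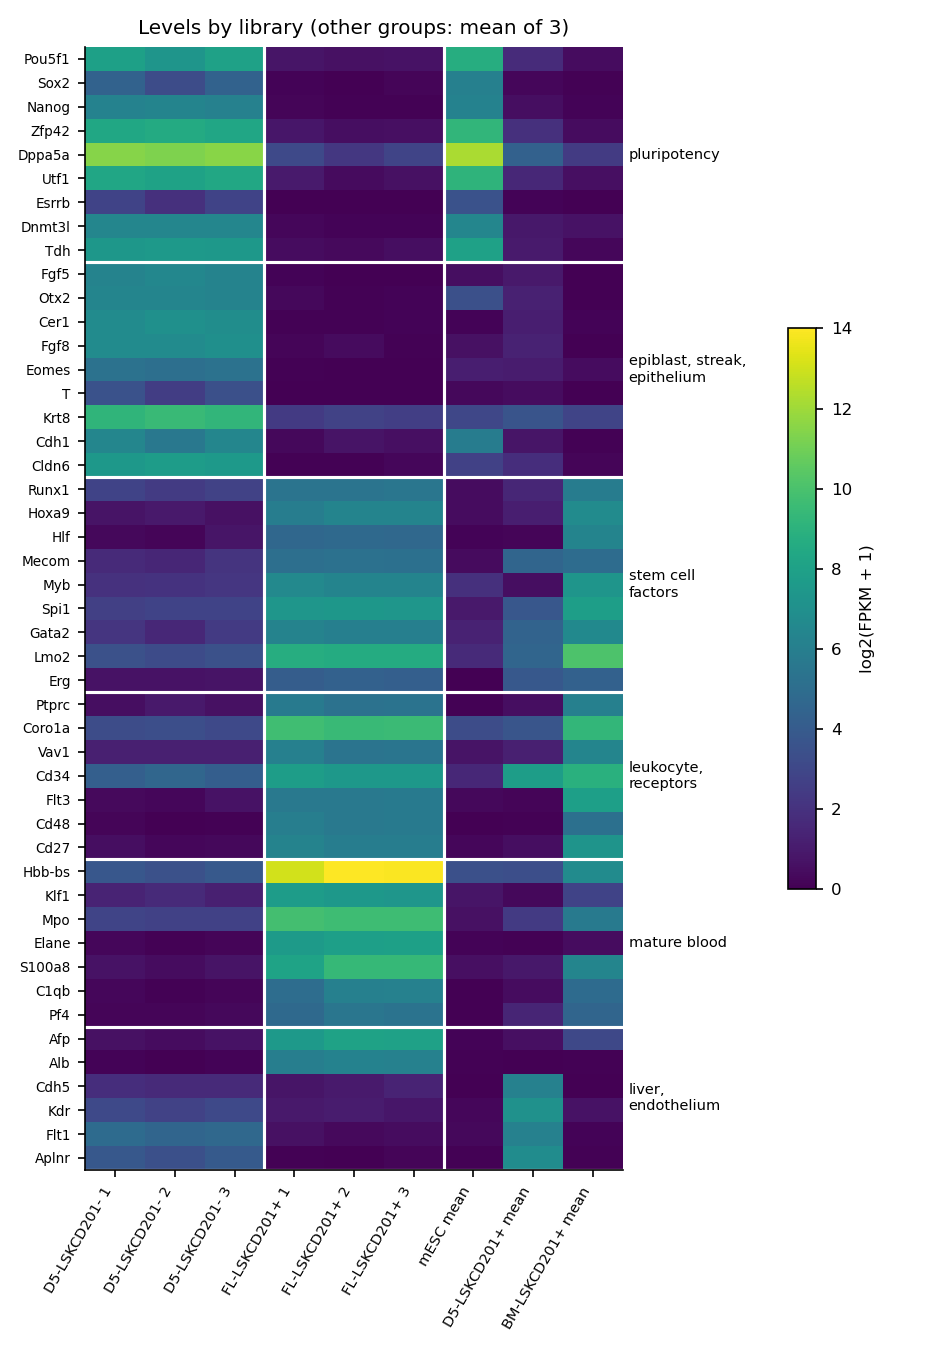
Levels as log2(FPKM + 1) by colour (dark 0, yellow 14) for genes of 6 groups in rows. Columns are the 3 D5-LSKCD201- libraries, the 3 FL-LSKCD201+ libraries and the means of mESC, D5-LSKCD201+ and BM-LSKCD201+. The upper groups are bright in D5-LSKCD201- cells and the stem cell, leukocyte and mature blood groups in FL-LSKCD201+ cells, and no replicate of either group takes the pattern of the other.

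The largest decreases of the whole comparison were of genes of mature blood. The 10 lowest log2 fold changes were of Hbb-bs, Hbb-bt, Hba-a2, Hba-a1, S100a8, S100a9, Stfa1, Ngp, Elane and Lyz2, which are adult globins and granulocyte or macrophage genes. Hbb-bs (chr7:103826533-103828096), an adult beta globin, was at 12.9, 9.99 and 14.0 FPKM in D5-LSKCD201- cells and at 8651, 16578 and 15941 FPKM in FL-LSKCD201+ cells (-9.96 ± 0.27, adjusted p = 2.39e-07). Hba-a1, an adult alpha globin, was at 20.4, 22.5 and 22.1 FPKM in D5-LSKCD201- cells and had a log2 fold change of -8.40 ± 0.32. Globins took 4.37%, 7.45% and 7.31% of the summed FPKM of FL-LSKCD201+ replicates 1 to 3, and 0.0169%, 0.0291% and 0.0191% of that of D5-LSKCD201- replicates. FL-LSKCD201+ replicate 1 was thus the lowest fetal liver library in adult globin and still far above all D5-LSKCD201- libraries. The pairs Hbb-bs and Hbb-bt, and Hba-a1 and Hba-a2, are nearly identical copies, between which reads may have been split, and the reference carries the C57BL/6 globin genes. How reads of 129/ola alleles aligned to them was not tested. Mean levels in mESC, were 9.68 FPKM for Hbb-bs and 7.30 FPKM for Hba-a1, and Hbb-bs did not pass the test between D5-LSKCD201- cells and mESC (0.32 ± 0.18, adjusted p = 0.159).

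The 3 embryonic globins differed from each other. Hbb-bh1, the beta-like globin of primitive erythroid cells, was at 34.0, 84.1 and 37.6 FPKM in D5-LSKCD201- cells against 9.39, 23.8 and 21.4, so every D5-LSKCD201- library was above every fetal liver library (1.44 ± 0.44, adjusted p = 0.0213). The call rested on the libraries that stood apart: the log2 fold change was 1.03 without D5-LSKCD201- replicate 2, 1.04 without FL-LSKCD201+ replicate 1 and 0.64 without both, none of them called. In mESC Hbb-bh1 was near 0 (mean 0.0232 FPKM), and the difference from mESC was 5.57 ± 0.31 (adjusted p = 9.08e-06). Hba-x, the embryonic zeta globin, was at 6.25, 24.4 and 8.54 FPKM against 12.8, 2.38 and 2.91, with overlapping groups, and did not pass (1.09 ± 0.65, adjusted p = 0.173). It was called without FL-LSKCD201+ replicate 1 (1.73) and without both libraries (1.19). Hbb-y, the other embryonic beta globin, went the opposite way, with 1.09, 0.151 and 1.55 FPKM against 90.3, 10.6 and 8.46 (-3.56 ± 0.83, adjusted p = 0.00699). Its log2 fold change was -2.52 without FL-LSKCD201+ replicate 1, and -2.18 without that library and D5-LSKCD201- replicate 2, still called in both. FL-LSKCD201+ replicate 1 was the highest fetal liver library for Hbb-y and Hba-x and the lowest for Hbb-bh1 and the adult globins.

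Globin promoters are shown because adult and embryonic beta globins of 1 locus moved in different amounts. The 120 bases before the start are printed 5′ to 3′ (RefSeq, GRCm38.p6) for Hbb-bs (chr7:103827929-103828048, minus strand), Hbb-bt (chr7:103813924-103814043, minus strand) and Hbb-y (chr7:103853208-103853327, minus strand), with the letters CACCC, which KLF1 is known to bind, and CCAAT, or their reverse complements, in capitals. Starts are those of RefSeq, which differ from the gene spans of the deposited table: the window of Hbb-bs lies inside the span given above, and those of Hbb-bt and Hbb-y overlap their genes' spans in part.
Hbb-bs: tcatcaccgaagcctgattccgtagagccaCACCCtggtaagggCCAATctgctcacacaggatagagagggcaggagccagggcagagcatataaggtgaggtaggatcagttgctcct
Hbb-bt: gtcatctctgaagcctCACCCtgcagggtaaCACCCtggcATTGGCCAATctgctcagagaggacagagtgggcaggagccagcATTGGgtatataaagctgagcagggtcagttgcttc
Hbb-y: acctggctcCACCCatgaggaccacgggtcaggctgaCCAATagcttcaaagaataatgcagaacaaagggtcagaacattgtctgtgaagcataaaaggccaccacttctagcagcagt
In the 250 bases before the start, on both strands, CACCC was in 6 of 8 globin genes (75.0%) and 54.5% of all 27025 genes with a promoter, and CCAAT in 7 of 8 (87.5%) and 37.5%. Hbb-y, with both letter groups, was at up to 90.3 FPKM in fetal liver cells while Hbb-bs reached 16578. Here too a match is a description of letters only.

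**Figure D4:**
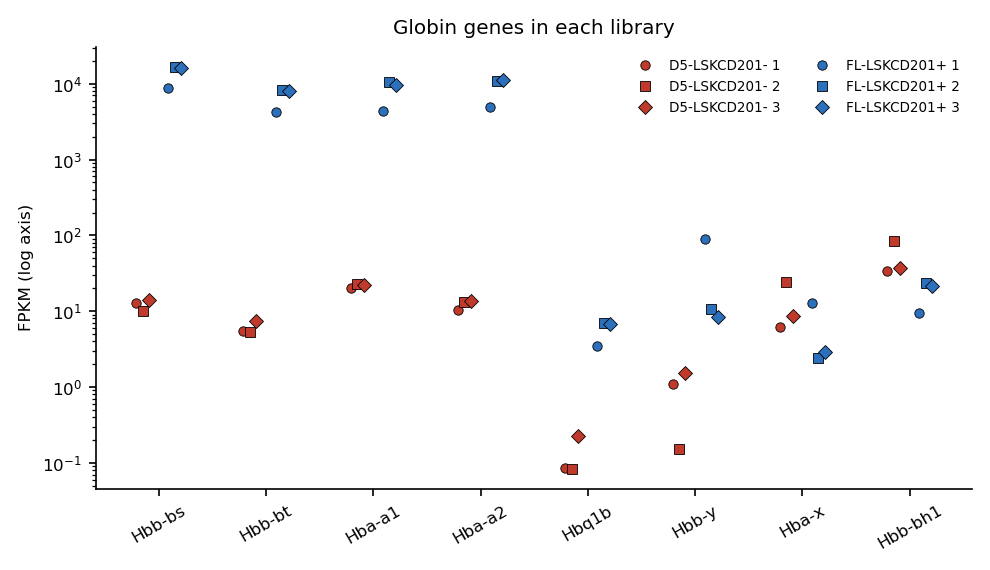
FPKM of 8 globin genes on a log axis, 1 symbol per library (red D5-LSKCD201-, blue FL-LSKCD201+; circle, square and diamond are replicates 1, 2 and 3). The 4 adult globins are separated by several steps of the axis, Hbb-bh1 is higher in all D5-LSKCD201- libraries, and Hba-x overlaps. Hbq1b, a theta globin, fell at low levels.

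Of 29 other erythroid genes 25 fell and none rose (median -3.0). Klf1, the erythroid Krüppel-like factor, was at 1.62, 2.18 and 1.39 FPKM against 213, 180 and 164 (-6.09 ± 0.15). Gata1, the erythroid GATA factor, was at 3.70, 5.66 and 4.31 FPKM against 46.3, 40.6 and 37.0 (-2.94 ± 0.16) and was above the means of mESC (0.227 FPKM) and D5-LSKCD201+ cells (0.406 FPKM). Replicate 2 had the highest Gata1, Klf1, Hbb-bh1 and Hba-x of the D5-LSKCD201- libraries. Tfrc, the transferrin receptor used by all dividing cells, was not called (0.87 ± 0.13).

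Granulocyte and macrophage genes had the second lowest median of the lists, -4.27, with 30 of 32 lower and none higher. Their sum was 57.3, 56.0 and 67.1 FPKM against 3687, 4584 and 4552. Mpo, myeloperoxidase of early granulocytic cells, was at 6.37, 5.61 and 5.45 FPKM against 922, 821 and 811 (-6.97 ± 0.10, adjusted p = 9.04e-08). Elane, neutrophil elastase, was at 0.167, 0.0569 and 0.142 against 198, 244 and 247 (-7.68 ± 0.12). S100a8, a calcium-binding protein of mature neutrophils, was at 0.620, 0.404 and 0.673 against 284, 669 and 676 (-8.34 ± 0.33). Stfa1, a stefin of neutrophils, was at 1.24, 0.459 and 0.441 against 161, 629 and 564 (-7.85 ± 0.51). C1qb, a complement gene of macrophages, was at 0.171, 0.0576 and 0.148 against 31.8, 68.0 and 70.0 (-5.60 ± 0.29). FL-LSKCD201+ replicate 1 was the lowest fetal liver library in S100a8, Stfa1 and C1qb and the highest in Mpo. S100a8 and C1qb are known from mature cells, and the FL-LSKCD201+ gate is lineage-negative. Which cells of the sort carried them was not tested.

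Promoters of 4 granule genes that fell in D5-LSKCD201- cells are printed, and each holds the letters marked. The letters GAGGAA, part of the sequence bound by PU.1, are in capitals on either strand. The bases run 5′ to 3′ from 120 to 1 before the start for Elane (chr10:79886192-79886311, plus strand) and Prtn3 (chr10:79879547-79879666, plus strand), and the first 120 of the 250 bases before the start are given for Mpo (chr11:87793534-87793653, plus strand) and Ctsg (chr14:56102705-56102824, minus strand), from RefSeq on GRCm38.p6. The windows of Prtn3 and Mpo lie inside or overlap the spans that the deposited table gives these genes.
Elane: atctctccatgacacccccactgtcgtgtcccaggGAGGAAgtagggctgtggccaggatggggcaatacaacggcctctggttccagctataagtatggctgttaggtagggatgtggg
Prtn3: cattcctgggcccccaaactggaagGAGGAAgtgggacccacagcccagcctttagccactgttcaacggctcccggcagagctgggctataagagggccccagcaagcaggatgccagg
Mpo: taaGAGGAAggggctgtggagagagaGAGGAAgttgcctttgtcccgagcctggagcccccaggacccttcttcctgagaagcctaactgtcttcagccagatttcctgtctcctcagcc
Ctsg: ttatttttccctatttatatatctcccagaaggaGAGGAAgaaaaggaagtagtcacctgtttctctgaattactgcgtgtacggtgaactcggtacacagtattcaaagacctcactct
The letters were in the 250 bases before the start of 16 of 27 granulocyte and macrophage genes (59.3%) and of 25.9% of all genes with a promoter. Prtn3 (-6.94 ± 0.20) and Ctsg (-7.22 ± 0.12) fell by similar amounts as Elane and Mpo. These genes were picked for display with their values known. A match is a description of letters only, and binding by PU.1 was not tested.

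Other blood lineages were lower too. Of 24 tested megakaryocyte and platelet genes 16 fell and 1 rose (median -1.64), among them Pf4, platelet factor 4, at 0.162, 0.160 and 0.211 FPKM against 26.2, 43.6 and 39.4 (-4.96 ± 0.19). Of 8 tested mast cell and basophil genes 5 fell (median -2.47), with the carboxypeptidase gene Cpa3 at -4.09 ± 0.15. The mast cell proteases Cma1 and Tpsb2 did not pass, with 1 fetal liver library high for both. Of 15 tested lymphoid genes 8 fell and 2 rose (median -1.03). Cd79b, a B cell receptor chain also read in progenitors, was at 0.992, 1.36 and 1.35 FPKM against 49.7, 53.2 and 52.8 (-4.57 ± 0.12). Tcf7, which encodes the Wnt effector TCF1, rose, with 26.9, 13.8 and 25 FPKM against 1.84, 0.776 and 0.569 (3.47 ± 0.31). Its mean in mESC was 18.4 FPKM.

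Liver genes formed a group of their own in the FL-LSKCD201+ libraries. Of 24 tested hepatoblast and hepatocyte genes 20 fell and 2 rose (median -3.18). The list summed to 68.7, 50.2 and 69.2 FPKM in D5-LSKCD201- cells and to 763, 1039 and 1020 FPKM in FL-LSKCD201+ cells. Afp, alpha-fetoprotein, was at 0.520, 0.381 and 0.581 FPKM against 188, 271 and 261 (-7.32 ± 0.16, adjusted p = 1.40e-07), and Alb, albumin, at 0.0982, 0.0249 and 0.0849 against 63.0, 73.7 and 69.7 (-6.03 ± 0.11). Apoa1, an apolipoprotein, was at 5.18, 3.27 and 4.95 against 73.1, 142 and 141 (-4.41 ± 0.28). Trf (-4.63), Ttr (-3.31) and Rbp4 (-1.57) fell as well. Afp, Alb and Apoa1 were thus read in every fetal liver library and were near 0 or low in all D5-LSKCD201- libraries. In BM-LSKCD201+ cells the means were 7.30 FPKM for Afp and 0.0411 FPKM for Alb. The sort of FL-LSKCD201+ cells took c-Kit-positive, CD201-positive cells. The part that RNA of hepatic cells took in the FL-LSKCD201+ values was not tested. Foxa1, a forkhead factor, rose, with 10.4, 4.62 and 10.1 FPKM against 0.269, 0.398 and 0.549 (2.67 ± 0.28). The other gene of the list that rose was Fetub, at 1.71, 1.55 and 1.56 FPKM against 0.146, 0.167 and 0.129 (1.18 ± 0.09).

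Endothelial genes divided almost evenly. Of 36 tested 13 rose, 10 fell and 13 were not called (median 0.56). Genes of both directions were found among receptors and among transcription factors. Of those that rose, Flt1, a VEGF receptor, was at 28.7, 22.9 and 26.0 FPKM against 0.562, 0.304 and 0.381 (4.24 ± 0.14). Kdr, which encodes FLK1, was at 7.45, 5.72 and 7.69 against 0.924, 1.06 and 0.813 (2.03 ± 0.14), and Aplnr, the apelin receptor of early mesoderm, at 13.7, 9.72 and 14.4 against 0.0621, 0.0262 and 0.160 (3.64 ± 0.17). Etv2, the master factor of blood and vessel progenitors, was at 5.96, 5.5 and 6.18 FPKM against 0.0543, 0 and 0 (2.76 ± 0.10). Of those that fell, Egfl7, a secreted vascular protein, was at 51.0, 54.2 and 56.3 FPKM against 286, 289 and 283 (-2.39 ± 0.09), and Emcn, the sialomucin endomucin, at 3.46, 5.85 and 4.4 against 34.9, 29.4 and 30.2 (-2.56 ± 0.17). The receptor genes Eng (-2.03), Tie1 (-1.88) and Robo4 (-2.60) and the factor gene Sox18 (-1.37) fell as well, while Tek (-0.94) and Ets1 (0.26) were not called.

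Cdh5, which encodes VE-cadherin, was low in both groups, at 2.55, 2.23 and 2.16 FPKM against 0.733, 1.05 and 1.6 (0.66 ± 0.16, adjusted p = 0.00939), and it passed the fold threshold with a pseudocount of 0.1 (1.03). Pecam1, an adhesion molecule of endothelium and also of embryonic stem cells, was at 22.8, 23.8 and 22.1 FPKM against 17.9, 16.4 and 17.4 (0.39 ± 0.09). D5-LSKCD201+ cells from the same coculture held far more of these transcripts: of 39 genes tested between both coculture groups, 38 were lower in the CD201-negative cells (median -3.94). Means in D5-LSKCD201+ cells were 70.8 FPKM for Cdh5, 260 FPKM for Pecam1 and 137 FPKM for Kdr. Against mESC, 21 of 37 were higher in D5-LSKCD201- cells and none was lower (median 1.16).

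**Figure D5:**
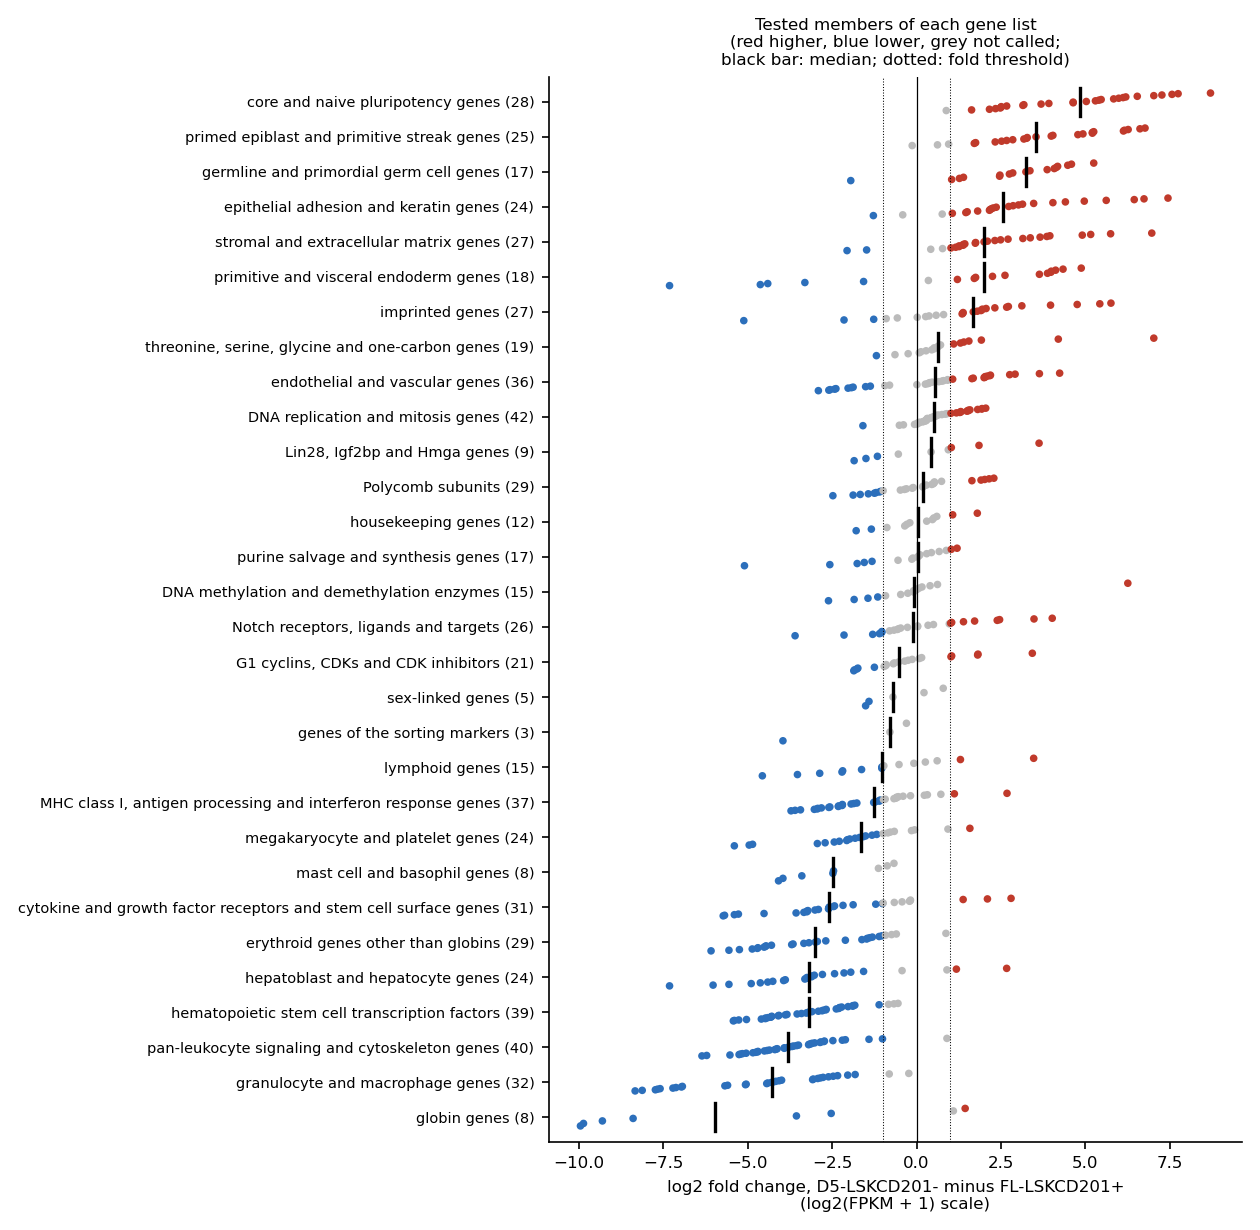
Log2 fold changes (D5-LSKCD201- minus FL-LSKCD201+) of the tested members of each of 30 gene lists, the sorting markers included, 1 point per gene, ordered by the median (black bar), with the number tested in brackets. Pluripotency (median 4.84) is at the top and the globins (-5.98) at the bottom, while lists such as DNA methylation enzymes and housekeeping genes are centred near 0.

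Genes of antigen presentation and interferon response leaned down. Of 37 tested 23 fell and 2 rose (median -1.25). B2m, the light chain of MHC class I, was at 102, 132 and 112 FPKM against 1089, 766 and 816 (-2.93 ± 0.17), and H2-D1, a class I heavy chain, at 29.2, 33.1 and 32.8 against 337, 237 and 235 (-3.03 ± 0.16). Psmb8, an immunoproteasome subunit, was at 9.75, 12.3 and 9.87 against 138, 120 and 116 (-3.44 ± 0.13). B2m and Psmb8 were both above mESC (2.27 ± 0.10 and 2.16 ± 0.12), and H2-D1 was just under the fold threshold there (0.97 ± 0.10). Class I genes have close copies and differ between strains, so their levels are uncertain. Usp18, an interferon-induced protease that removes ISG15, rose, with 17.8, 23.7 and 17.2 FPKM against 2.25, 2.28 and 2.03 (2.68 ± 0.15).

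Proliferation genes differed less. Of 42 DNA replication and mitosis genes 13 rose, 1 fell and 28 were not called (median 0.51). Bub1, a spindle checkpoint kinase, was at 66.8, 53.0 and 67.6 FPKM against 15.2, 13.6 and 14.1 (2.05 ± 0.12), and Orc1, an origin recognition subunit, at 40.9, 45.8 and 40.3 against 12.7, 9.21 and 9.37 (1.94 ± 0.14). Mki67 was the one gene that fell (-1.59 ± 0.22). Against mESC their median was -0.17 and no member passed both thresholds of the limma test, and 10 of 42 were higher than in D5-LSKCD201+ cells. Of 21 G1 regulators 5 rose (23.8%) and 5 fell (23.8%), beside 18.6% and 18.7% of all genes tested (median -0.53). Ccnd2, the D-type cyclin of stem and progenitor cells, was at 26.6, 28.1 and 24.3 FPKM against 87.1, 102 and 102 (-1.84 ± 0.11), while Ccnd1 was at 42.9, 38.7 and 42.8 against 16.4, 22.1 and 22.0 (1.02 ± 0.14). The call of Ccnd1 was lost when D5-LSKCD201- replicate 1 or 3 (0.99) or FL-LSKCD201+ replicate 1 (0.88) was left out, and with both libraries that stood apart left out (0.93). Cdkn2b, an inhibitor of CDK4 and CDK6, was at 9.20, 11.4 and 9.40 FPKM against 0.0551, 0 and 0 (3.43 ± 0.12). Cdkn1c, which encodes p57, was at 46.2, 51.9 and 49.3 FPKM against 86.7, 94.6 and 96.5. It was lower in every D5-LSKCD201- library but under the fold threshold (-0.90 ± 0.10). Its mean in D5-LSKCD201+ cells was 882 FPKM, and the log2 fold change against those cells was -4.14 ± 0.05.

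Of 29 Polycomb subunits 5 rose (17.2%) and 8 fell (27.6%), beside 18.6% and 18.7% of all genes tested, with a median of 0.18. Pcgf2 (2.29 ± 0.17), Jarid2 (2.15 ± 0.20) and Phc1 (1.91 ± 0.14), the latter 2 known from embryonic stem cells, rose, and Bmi1 fell (-1.67). Jarid2 was at 82.7, 48.9 and 73.8 FPKM against 15.8, 13.1 and 14.1. Ezh2, the methyltransferase itself, was at 59.8, 43.6 and 59.8 FPKM against 37.1, 53.2 and 52.2, with overlapping groups (0.19 ± 0.19, adjusted p = 0.386). Among 15 DNA methylation genes 1 rose (6.67%) and 4 fell (26.7%), with a median of -0.09. That one was Dnmt3l, the cofactor of de novo methylation in germ and stem cells, at 85.8, 85.0 and 84.8 FPKM against 0.166, 0.0954 and 0.120 (6.26 ± 0.10), with a mean of 84.8 FPKM in mESC. Dnmt3b (0.62 ± 0.11) and Tet1 (0.01 ± 0.23) were not called, and Mbd2, a reader of methylated DNA, fell (-2.61 ± 0.22).

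Genes of the fetal Lin28 axis gave 3 higher, 3 lower and 3 not called of 9. Lin28a, an RNA-binding repressor of let-7, was at 20.3, 5.76 and 19.9 FPKM against 0.149, 0.204 and 0.137 (3.63 ± 0.43), while Lin28b, its paralog in fetal stem cells, was at 4.33, 3.16 and 4.09 against 5.10, 6.79 and 6.38 (-0.54 ± 0.15, adjusted p = 0.0164). Hmga2, a fetal stem cell chromatin protein under let-7 control, was at 19, 10.8 and 17.4 against 50.2, 60.3 and 63.6 (-1.85 ± 0.21) and above the mESC mean of 0.602 FPKM. D5-LSKCD201- replicate 2 was the lowest of its group in all 3 of these genes.

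Notch pathway genes went both ways, with 8 higher (30.8%) and 7 lower (26.9%) of 26 tested (median -0.12). Over all genes tested the shares were 18.6% and 18.7%. The ligand genes that rose were Dll3 at 16.4, 14.0 and 18.7 FPKM against 0, 0.108 and 0.0935 (4.02 ± 0.14), Jag1 (2.39) and Dll1 (1.72), while Dll4 and Jag2 were not called (-0.80 and -0.57). Dlk1, also on the list, fell, with 10.9, 6.49 and 14.1 FPKM against 51.2, 46.4 and 46.5 (-2.15 ± 0.24). Of the receptor genes, Notch1 was at 1.49, 0.784 and 1.91 FPKM against 3.95, 3.55 and 3.91 (-1.03 ± 0.19) and Notch2 fell too (-1.03), while Notch3 (1.39) and Notch4 (1.04) rose. Mfng, a glycosyltransferase that modifies Notch, was at 7.50, 6.35 and 7.60 against 112, 91.7 and 90.6 (-3.60 ± 0.13). Dtx1, a Notch-linked ubiquitin ligase, rose (3.48 ± 0.11). The target gene Hey1 was at 12.1, 9.48 and 10.2 FPKM against 1.11, 1.40 and 0.829 and rose (2.46), whereas Hes1 was at 132, 109 and 139 FPKM against 129, 165 and 164 (-0.27 ± 0.15, adjusted p = 0.145), with overlapping groups. The count of lower genes was 4 without D5-LSKCD201- replicate 2. On the levels given above, Notch1 was under the fold threshold without that library, which had its lowest level.

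Metabolic genes included a few very large differences. Tdh, threonine dehydrogenase of mouse embryonic stem cells, was at 171, 181 and 177 FPKM against 0.400, 0.261 and 0.423 (7.03 ± 0.10, adjusted p = 9.04e-08), near the mESC mean of 256 FPKM (-0.53 ± 0.05). Gldc, which cleaves glycine, rose (4.20 ± 0.34), and Phgdh, the first enzyme of serine synthesis, fell (-1.19 ± 0.12). In all, 7 of 19 threonine, serine, glycine and one-carbon genes rose and 1 fell (median 0.63). Of 17 tested purine genes 2 rose (11.8%) and 5 fell (29.4%), beside 18.6% and 18.7% of all genes tested (median 0.03). Hprt (chrX:52988136-53021659), the hypoxanthine salvage enzyme, was at 4.84, 7.41 and 6.32 FPKM against 238, 240 and 250 (-5.10 ± 0.14, adjusted p = 2.63e-07). Hprt was low in all 129/ola groups (means 1.55 FPKM in mESC and 5.87 FPKM in D5-LSKCD201+) and high in both C57BL/6 groups (164 FPKM in BM-LSKCD201+). Some 129/ola embryonic stem cell lines are known to carry a deletion in Hprt. The name of the line is not given in the sources used here, and whether it has this deletion was not tested.

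Imprinted genes, expressed from 1 parental allele, were mostly higher. Of 27 tested 17 rose and 3 fell (median 1.68). Mest was at 303, 354 and 292 FPKM against 2.97, 5.29 and 6.94 (5.76 ± 0.24), and Nnat at 42.3, 46.3 and 42.1 against 0.0502, 0.0494 and 0 (5.43 ± 0.11). H19 fell, with 1.21, 0.620 and 0.987 FPKM against 42.8, 82.7 and 81.1 (-5.12 ± 0.27), while its neighbour Igf2 rose (1.37 ± 0.17). Igf2 and Mest were higher still in D5-LSKCD201+ cells, at means of 1676 and 2458 FPKM. Of 5 sex-linked genes 2 fell, Xist (-1.41) and Kdm5d (-1.51). The Y-linked Eif2s3y was higher in every D5-LSKCD201- library but not called, with 29.8, 38.4 and 30.2 FPKM against 18.2, 19.3 and 17.7 (0.79 ± 0.12). Ddx3y (-0.70) and Uty (0.22) were not called either. Xist, the X-inactivation RNA, was at 1.44, 1.73 and 2.01 FPKM in FL-LSKCD201+ cells and the Y-linked Kdm5d at 1.87, 2.95 and 2.70, so each fetal liver library held both. The number and sex of embryos behind a library are not given in the sources used here.

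Of 12 housekeeping genes 2 rose (16.7%), 2 fell (16.7%) and 8 were not called (median 0.05), beside 18.6% higher and 18.7% lower of all genes tested. Rplp0, a ribosomal stalk protein gene, was at 510, 588 and 546 FPKM against 1497, 2147 and 2128 (-1.79 ± 0.18), and Gapdh at 747, 750 and 831 against 422, 350 and 339 (1.07 ± 0.13, or 0.96 after quantile normalization, not called). Pgk1 rose the most of them, with 555, 699 and 562 FPKM against 168, 176 and 174 (1.80 ± 0.13). Differences of up to 1.80 in size in the lists above are thus of the size that housekeeping genes also show. Those of Pou5f1 (7.03), Krt8 (6.74), Ptprc (-4.77), Mpo (-6.97) and Hbb-bs (-9.96) lie well outside it.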

How the data were processed

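RNA was extracted with TRIzol, and sequencing libraries (VAHTS mRNA-seq v2 kit) were read as paired ends. Per the labels and the study's methods, the authors aligned reads with HISAT2 2.0.5 (GRCm38; the labels also list mm9), assembled them with StringTie 1.3.3 and deposited FPKM per gene and library. Cuffdiff 1.3.0 was used for their tests, whose values were not used here. No read counts were used, so the depth and counting error are unknown.

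Values were used as log2(FPKM + 1), with a pseudocount of 1. Genes averaging 0.5 FPKM or more in the 6 libraries entered limma 3.58.1 (trend, two-sided, R 4.3.3), with Benjamini-Hochberg adjustment over all genes tested. limma stood in for Cuffdiff with the study's thresholds (0.05 and a log2 fold change of 1). The same test was run against mESC and D5-LSKCD201+, which share the D5-LSKCD201- libraries. An exact permutation test of 3 against 3 libraries could not go under 0.1 and was not used. The limma scripts were tested on simulated data. The gene members and the 30 lists were chosen with earlier results of these data known. Of the genes, 178 were named by rule: marked list genes, the 10 largest changes in each direction, and in each list the largest called changes and the highest level. Other genes with values in the text were chosen after their values were seen. Of 27968 Ensembl identifiers 99.5% were in GENCODE M21 (GRCm38), which gave transcript length and GC content. Promoters came from RefSeq (GRCm38.p6). Python 3.11.15 with matplotlib 3.10.9 made the figures. Alternatives changed the pseudocount, filter, scaling, variance prior, block, fit and libraries. No GEO column outside the labelled samples was used. Some genes are not reported here.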

Additional observations from a re-analysis of the deposited data

How the results depend on the processing

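With the adjusted p of limma alone, without the fold threshold, 4790 genes were higher and 4890 lower. Under the other alternatives the 2665 higher and 2686 lower genes stayed within 1.5 times, from 2346 (filter at 1 FPKM) to 3151 (pseudocount of 0.1) higher and from 2484 (same sum per library) to 3412 (pseudocount of 0.1) lower. Leaving out 1 library gave 2545 to 2695 higher and 2530 to 2761 lower. Leaving out D5-LSKCD201- replicate 2 and FL-LSKCD201+ replicate 1 together gave 2854 and 2670, and averaging the closest pair of replicates gave 2599 and 2691; both alternatives were chosen after the data were seen.

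Replicate numbers are shared between the groups, but no label says that they pair samples, so they were not taken as pairs. Deviations of same-numbered libraries correlated weakly (Pearson r across genes 0.146, 0.0584 and 0.0291 for replicates 1 to 3). With so few libraries this cannot show whether they were paired. With the replicate number as a block, 2671 genes were higher and 2699 lower, and no call of a named gene changed.

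Scaling to the same sum gave 2 higher megakaryocyte genes (in place of 1) and 4 lower Notch genes (7). A filter at 1 FPKM gave 1 higher hepatic gene (2) and 1 lower sex-linked gene (2). Quantile normalization gave 1 higher purine gene (2) and 723 genes lower than in mESC, which was 790 with a pseudocount of 0.1 (473). Leaving out 1 library gave 0 to 1 higher globin genes, 1 to 2 higher megakaryocyte genes, 4 to 7 lower Notch genes and 1 to 2 higher purine genes. Without D5-LSKCD201- replicate 2 and FL-LSKCD201+ replicate 1 together there were 2 higher megakaryocyte and 4 lower Notch genes. The causes were not tested.

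Of 178 named genes 167 kept their call under every one of the 16 settings that could be run on them, and none reversed. The 11 others were Car2, Ccnd1, Cdh5, Cdk6, Gapdh, Gart, Hba-x, Hbb-bh1, Igf2bp3, Itga2b and Ppia. Unknown depth limits genes near 0, and the CD201 gate, strain, culture and origin cannot be told apart.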
